A study of Mus musculus with 9 samples.

Results

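AP-1 is a family of leucine zipper transcription factors, and 9 of its genes are described here in mouse skin cells with and without Flg: Fos, Fosb, Fosl1, Fosl2, Jun, Junb, Jund, Atf3 and Maff. They were chosen by name, and each matched 1 gene of the 49671 in the deposited count table. All 9 passed the filter on low counts, which kept 18435 genes for testing. The series concerns keratinocyte transcription in the absence of Flg, which encodes filaggrin, a protein of the cornified layer. RNA was read from 4 ko/ko and 5 wt/wt libraries of cells sorted from skin as CD45-negative (no pan-leukocyte antigen) and CD49f-positive (integrin alpha-6, carried by basal keratinocytes but also by other cells). Both genotypes received the same sort, and the labels list no treatment. The sources used here do not give strain, age, sex, the nature of the Flg allele or whether it is missing from the whole body or from 1 cell type. Each library has its own identifier in its title, but no label says that each came from a separate animal, so the p-values measure the spread between these libraries.

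AP-1 proteins act as dimers. Jun proteins pair with each other or with Fos proteins, Fos proteins need a Jun partner, and both bind the DNA element TGACTCA or the related TGACGTCA. Many AP-1 genes are immediate early genes, transcribed soon after growth factors, stress, wounding or dissociation of a tissue act on cells without need for new protein synthesis. In epidermis, AP-1 is known for its part in keratinocyte proliferation, differentiation and wound repair. Atf3 is a stress-induced relative that pairs with Jun proteins, and Maff is a small Maf protein that lacks a classical activation domain and pairs with itself or with other zipper proteins.

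Library totals ran from 15601859 to 23200440 counts, so 1 count equals 0.0452 to 0.0577 CPM, the count of a gene scaled to the same TMM-adjusted total in each library. Flg had 2, 0, 0 and 4 counts in ko/ko libraries, against 0, 0, 6, 2 and 4 counts in wt/wt libraries, too few to check the genotype labels. The sorted cells were not keratinocytes alone. Summed over 10 fibroblast markers, levels ran from 35309 to 61132 CPM in ko/ko and from 26790 to 61894 CPM in wt/wt, while 10 basal keratinocyte markers summed to 1718 to 2688 CPM in ko/ko and 1500 to 3148 CPM in wt/wt. AP-1 levels below are therefore levels of a mixture, in which fewer cells of a type and less RNA per cell cannot be told apart. ko/ko replicates 1 and 4 and wt/wt replicate 1 stood apart by reads of the predicted gene Gm10800, at 3958, 12663 and 2188 CPM of the library total, against 2.76 to 270 CPM in the other 6 libraries. Without these libraries each AP-1 gene kept the sign of its difference, and 0 of 9 passed the test, as with them.

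The stretch of 120 bases before the transcription start is shown for the 4 genes whose transcripts were most abundant, since some AP-1 genes are known targets of AP-1 and CREB-family factors. Sequences are from RefSeq (GRCm38.p6), written 5′ to 3′ on the gene's own strand and ending at the base before the RefSeq start; capitals mark TGACG on either strand, TGACATCA and TATAAA. Fos lies at chr12:85473770-85473889 (plus strand), Junb at chr8:84978749-84978868 (minus strand), Atf3 at chr1:191183334-191183453 (minus strand) and Jun at chr4:95052223-95052342 (minus strand).
Fos: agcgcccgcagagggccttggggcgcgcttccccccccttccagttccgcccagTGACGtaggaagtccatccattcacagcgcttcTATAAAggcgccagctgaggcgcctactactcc
Junb: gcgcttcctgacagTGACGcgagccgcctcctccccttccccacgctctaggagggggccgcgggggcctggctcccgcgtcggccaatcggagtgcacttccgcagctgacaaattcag
Atf3: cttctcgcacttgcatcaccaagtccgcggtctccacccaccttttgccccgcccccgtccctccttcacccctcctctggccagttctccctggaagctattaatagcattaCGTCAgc
Jun: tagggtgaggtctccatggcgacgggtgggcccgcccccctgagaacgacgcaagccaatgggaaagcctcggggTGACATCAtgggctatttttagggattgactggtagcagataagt

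TGACG, the core of a cAMP response element, began 66 bases before the Fos start and again 129 bases before it, outside the stretch shown. It began 106 bases before the Junb start and, as CGTCA on the other strand, 7 bases before the Atf3 start. Jun instead held TGACATCA, an element known in the human JUN promoter as a site of Jun and ATF2, 45 bases before its start. Fos also held TATAAA 33 bases before its start. RefSeq windows from 250 bases before to 50 after the start were given for 8 of the 9 genes, all but Fosl1, with 3 windows for Maff. The Jund window lies around a RefSeq start outside the deposited model and its 3′ end was in no GENCODE transcript of the gene; it held none of the motifs searched and is counted among the 8. TGACG was in 5 of the 8 genes (Fos, Fosb, Junb, Atf3, Maff), against 20.8% of 32851 windows, and TGACATCA in 2 (Jun, Maff), against 3.62%. The full element TGACGTCA, which contains TGACG, was in 1 (Maff), against 1.79%, and TGACTCA in 0 of 8, against 5.2%. TATAAA was in 2 (Fos, Junb), against 13.6%, and CCAAT in 3 (Jun, Junb, Atf3), against 37.4%. The Junb TATAAA began at the RefSeq start itself, not before it, and the deposited Junb model begins 30 bases 3′ of that start. The CArG box, the binding site of serum response factor, was in 0, against 1.63%. Bases further than 250 before a start were not searched, so the 0 says nothing of sites there. A gene was counted if any of its windows held the motif, while the percentages are per window. The Maff matches all lay in its windows 2 and 3. Both strands were searched. These are matches of letters in a window, and no binding was measured.

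Fos and Junb transcripts dominated AP-1 in both genotypes. Levels of different genes are compared as CPM per kilobase of deposited exon length. On that scale Fos averaged 4034 ± 160 in ko/ko (SD, n = 4) and 5137 ± 868 in wt/wt (SD, n = 5), which placed it between rank 4 and rank 10 among all genes of each library. Junb averaged 2153 ± 197 in ko/ko and 2722 ± 260 in wt/wt, at ranks 13 to 16. Atf3 averaged 823 ± 19.6 in ko/ko and 1210 ± 107 in wt/wt, and Jun 654 ± 41.5 in ko/ko and 818 ± 97.0 in wt/wt. Each of these 4 genes thus stood among the 68 most abundant genes of every library. Fosb averaged 170 ± 10.5 in ko/ko and 192 ± 24.0 in wt/wt, and Fosl1 92.4 ± 14.2 in ko/ko and 101 ± 56.3 in wt/wt. Fosl2 averaged 34.2 ± 3.39 in ko/ko and 22.2 ± 5.09 in wt/wt, and Maff 21.6 ± 2.68 in ko/ko and 16.6 ± 4.55 in wt/wt. Jund was lowest, at 10.1 ± 2.69 in ko/ko and 6.08 ± 1.24 in wt/wt, ranks 3867 to 7857. Its level and its place in the order are uncertain, since 52.6% of its bases are shared with another gene, as described below.

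The order Fos, Junb, Atf3, Jun, Fosb, Fosl1, Fosl2, Maff, Jund was the same in 8 of 9 libraries. The exception was wt/wt replicate 2, where Fosl1 (175 CPM per kilobase) lay just above Fosb (171). Over all libraries the ranges of Atf3 and Jun, of Fosb and Fosl1, of Fosl2 and Maff and of Maff and Jund overlapped, while those of the other 4 neighbouring pairs did not. Reads of alternative transcripts are pooled in each gene, so full-length Fosb and its truncated form, a splice variant known from stimulated cells, cannot be told apart here.

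The genotypes were compared with edgeR's quasi-likelihood test over all 18435 genes. None of the 9 AP-1 genes passed at an adjusted p of 0.05 (0 of 9), where 0.00542% of all genes, 1 gene, passed in either direction. Without adjustment, 2 AP-1 genes were higher in ko/ko at p under 0.05 (Fosl2 and Jund) and 2 were lower (Junb and Atf3), against 8.86% of all genes higher and 6.42% lower (15.3% in either direction). On TMM-adjusted CPM the libraries of the genotypes did not overlap for 1 gene higher in ko/ko (Fosl2) and 3 lower (Fos, Junb and Atf3). Over all genes this held for 3.51% higher and 2.74% lower (6.25% in either direction). DESeq2 called Fosl2 higher and Atf3 lower, where it called 3.46% of all genes, 2.42% as higher and 1.04% as lower. limma voom with library quality weights called Atf3 alone of the 9, as lower, where it called 9.77% of all genes, 6.6% as higher and 3.17% as lower. The median log2 fold change was -0.18 over the 9 genes, with 3 positive and 6 negative, against -0.03 over all genes tested, of which 47.4% were positive.

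**Figure D1:**
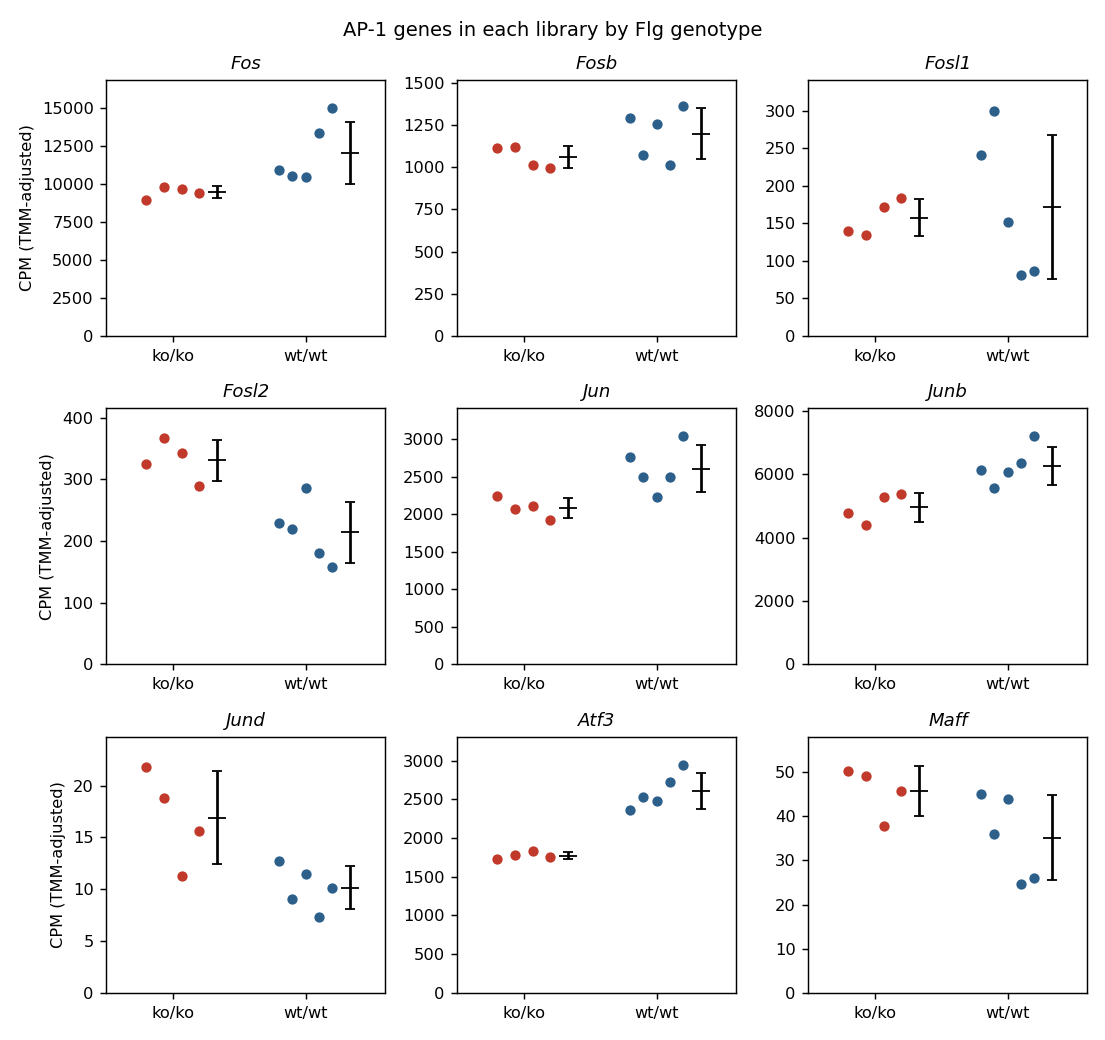
CPM of each AP-1 gene in every library, with 1 panel per gene and its own vertical axis from 0. Points are libraries in replicate order (ko/ko red, wt/wt blue) and bars give the mean and SD. The 4 ko/ko libraries of Atf3 (1728 to 1828 CPM) lie below all wt/wt libraries (2362 to 2946 CPM), and those of Fosl2 (289 to 367 CPM) above all wt/wt libraries (158 to 286 CPM).

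Among the Fos proteins, Fos itself is the prototype with a strong activation domain. It had 8997, 9835, 9721 and 9396 CPM in ko/ko replicates 1 to 4, against 10971, 10526, 10497, 13366 and 15056 CPM in wt/wt replicates 1 to 5. On this TMM-adjusted scale all ko/ko libraries lay below all wt/wt libraries. Still, wt/wt replicates 1 to 3 stood closer to the ko/ko libraries than to wt/wt replicates 4 and 5. Means were 9488 ± 376 CPM in ko/ko and 12083 ± 2041 CPM in wt/wt, a ratio of 0.785. The log2 fold change was -0.35 with an SE of 0.17 (adjusted p = 0.355 with edgeR). Neither DESeq2 nor weighted voom called it.

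Fosb, which like Fos carries an activation domain, had 1113, 1117, 1012 and 993 CPM in ko/ko, against 1292, 1070, 1254, 1011 and 1361 CPM in wt/wt. The genotypes overlapped, and the log2 fold change was -0.18 (SE 0.15, edgeR adjusted p = 0.582).

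Fosl1, which encodes Fra-1, a Fos protein without that activation domain, had 140, 135, 172 and 184 CPM in ko/ko, against 242, 299, 152, 80.9 and 87.1 CPM in wt/wt. It was the most variable of the 9 genes, with a 3.70-fold range between wt/wt replicate 2 and wt/wt replicate 4, and all ko/ko libraries lay inside the wt/wt range. The log2 fold change was -0.13 (SE 0.36, edgeR adjusted p = 0.894). It turned positive without wt/wt replicate 1 (0.03), without wt/wt replicate 2 (0.17) and with weighted voom (0.50), so no direction is given for this gene. The pair of wt/wt libraries highest for Fosl1 had the lowest sums of the 10 fibroblast markers among wt/wt libraries, at 32525 and 26790 CPM, where wt/wt replicates 3 to 5 had 55813 to 61894 CPM. In ko/ko replicates 1 to 4 the sums were 35309, 60189, 41812 and 61132 CPM. There the highest sum went with the highest ko/ko Fosl1 value (184 CPM), unlike in wt/wt. The part of these sums in the Fosl1 values was not tested.

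Fosl2, which encodes Fra-2, the other Fos protein without that domain, had 324, 367, 342 and 289 CPM in ko/ko, against 229, 219, 286, 180 and 158 CPM in wt/wt. All ko/ko libraries were above all wt/wt libraries, though ko/ko replicate 4 and wt/wt replicate 3 nearly met. Means were 331 ± 32.8 CPM in ko/ko and 214 ± 49.3 CPM in wt/wt, a ratio of 1.54 and a log2 fold change of 0.62 (SE 0.18, unadjusted p = 0.00476, edgeR adjusted p = 0.174). The adjusted p was 0.0349 with DESeq2 and 0.0554 with weighted voom. Fosl2 was thus the 1 Fos gene with higher values in ko/ko, while Fos and Fosb had lower means there.

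Among the Jun proteins, Jun, the prototype and a target of the JNK kinases, had 2245, 2066, 2106 and 1924 CPM in ko/ko, against 2765, 2497, 2232, 2502 and 3048 CPM in wt/wt. The genotypes overlapped only where ko/ko replicate 1 met wt/wt replicate 3. The log2 fold change was -0.32 (SE 0.15, edgeR adjusted p = 0.330).

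Junb, which is known to restrain Jun in several settings and whose loss together with Jun in mouse epidermis is known to cause psoriasis-like inflammation, had 4788, 4391, 5270 and 5368 CPM in ko/ko, against 6139, 5563, 6070, 6340 and 7202 CPM in wt/wt. On this TMM-adjusted scale all ko/ko libraries were below all wt/wt libraries. Means were 4954 ± 453 CPM in ko/ko and 6263 ± 598 CPM in wt/wt, a ratio of 0.791 and a log2 fold change of -0.34 (SE 0.15, unadjusted p = 0.0464, edgeR adjusted p = 0.319).

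Jund, usually described as the steadily expressed Jun gene, had 21.7, 18.8, 11.3 and 15.6 CPM in ko/ko, against 12.7, 9.06, 11.5, 7.36 and 10.1 CPM in wt/wt. Only ko/ko replicate 3 lay within the wt/wt range. The log2 fold change was 0.73 (SE 0.23, unadjusted p = 0.0079, edgeR adjusted p = 0.198). Its count rests on a model whose start differs between annotations. The deposited Jund model, with the same coordinates in GENCODE, is a single exon that begins 1210 bases 3′ of the RefSeq start. It has a GC content of 67.1% and shares 52.6% of its bases with Gm11175 on the other strand. Gm11175 had 0 counts in all 9 libraries. The sources used here do not say whether counting used strand or what was done with reads in shared bases, and the low Jund level is uncertain for that reason. Shared bases were fewer in the other genes, at 7.28% of Jun (with Junos), 7.52% of Junb (with Prdx2) and 0 in the rest.

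Atf3, the stress-induced partner of Jun proteins, had the smallest p-value of the 9. It had 1728, 1779, 1828 and 1756 CPM in ko/ko, against 2362, 2530, 2472, 2719 and 2946 CPM in wt/wt. The ko/ko libraries lay close together, and even the lowest wt/wt library, replicate 1, was clear of them. Means were 1773 ± 42.2 CPM in ko/ko and 2606 ± 230 CPM in wt/wt, a ratio of 0.680 and a log2 fold change of -0.56 (SE 0.14, unadjusted p = 0.00187). The adjusted p was 0.145 with edgeR, 0.000232 with DESeq2 and 0.0140 with weighted voom. The log2 fold change lay between -0.66 and -0.44 over 18 other settings, fits without each library included. The deposited Atf3 model begins far 5′ of the RefSeq start used above, and reads from either start are pooled.

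Maff had 50.2, 49.2, 37.7 and 45.6 CPM in ko/ko, against 45.1, 36.0, 43.8, 24.6 and 25.9 CPM in wt/wt. The genotypes overlapped, with wt/wt replicates 4 and 5 lowest. The log2 fold change was 0.38 (SE 0.21, edgeR adjusted p = 0.405).

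**Figure D2:**
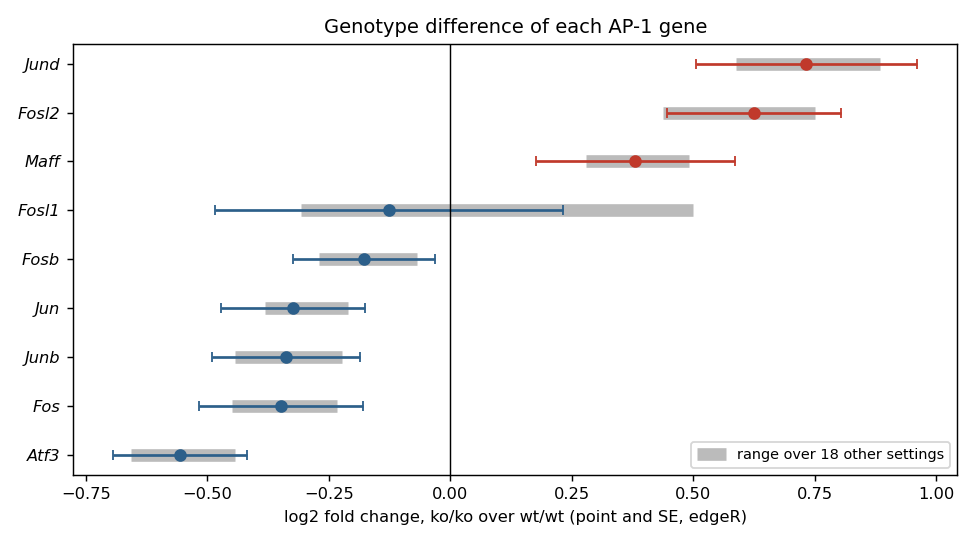
Log2 fold change of each AP-1 gene, ko/ko over wt/wt, from edgeR (points with SE bars, red where positive and blue where negative). Grey bars give the range over 18 other settings. Only the bar of Fosl1 (-0.31 to 0.50) crosses 0; Atf3 (-0.66 to -0.44) and Fosl2 (0.44 to 0.75) stay on opposite sides.

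The 5 genes above 1000 CPM on average (Fos, Junb, Jun, Atf3, Fosb) had lower means in ko/ko and were all highest in wt/wt replicate 5. That library was also lowest for Fosl2. wt/wt replicate 4 was lowest for Fosl1, Jund and Maff. Without wt/wt replicate 5, or without any other single library, the sign of each gene but Fosl1 stayed as it was. Scaling by library totals in place of TMM moved the median of all genes to 0.08, against -0.03. Relative to that median the log2 fold changes were nearly the same, at -0.52 and -0.53 for Atf3 and 0.65 and 0.65 for Fosl2. Fos and Junb did overlap between the genotypes when scaled by library totals. There ko/ko replicate 3 had 207857 Fos and 112676 Junb counts of 19402137, against 215379 and 124542 of 22176370 in wt/wt replicate 3.

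Other measures of the libraries also varied, and the ranges of the genotypes overlapped for each of them. Of 12 myeloid markers, 11 were tested and all 11 had positive log2 fold changes, with sums of 42.2 to 448 CPM in ko/ko and 21.6 to 94.3 CPM in wt/wt; Tyrobp, C1qc and Cd207 were at 0 in some library. Of 8 endothelial markers, 6 were negative, with sums of 222 to 287 CPM in ko/ko and 266 to 606 CPM in wt/wt, and none was at 0 in any library. Of the 6 hair follicle sheath markers, 4 of 5 tested were negative, with sums of 5.24 to 18.8 CPM in ko/ko and 6.78 to 138 CPM in wt/wt, and Krt28, Krt71 and Krt73 were at 0 in some library. Mitochondrial genes took 1.81% to 2.01% of counts in ko/ko replicates 2 to 4 and 6.30% in ko/ko replicate 1, and 2.77% to 7.55% in the wt/wt libraries. edgeR called 0 markers of these 3 cell types, and 47.4% of all genes tested had positive log2 fold changes. DESeq2 called 7 of 11 myeloid markers higher and 1 endothelial marker, Lyve1, lower, against 2.42% and 1.04% of all genes. Weighted voom called the myeloid marker Ptprc higher and Lyve1 lower, against 6.6% and 3.17%. At an unadjusted p under 0.05, 10 of 11 myeloid markers were higher, against 8.86% of all genes. Lower were 5 of 8 endothelial and 3 of 5 hair follicle sheath markers, against 6.42%. The part of these measures in the AP-1 differences was not tested.

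In sum the 9 genes held 1.94% to 2.26% of all counts in ko/ko and 2.13% to 2.81% in wt/wt, with overlapping ranges. On TMM-adjusted CPM the sum was 19910 ± 457 in ko/ko (SD, n = 4) and 25190 ± 2965 in wt/wt (SD, n = 5). On that scale the ranges, 19408 to 20500 CPM in ko/ko and 22751 to 29895 CPM in wt/wt, did not overlap. The make-up of that pool was close in its main parts. Per kilobase, Fos made up 49.4% to 53.0% in ko/ko libraries and 48.0% to 53.0% in wt/wt libraries. Junb made up 26.9% ± 2.01 in ko/ko and 26.7% ± 1.20 in wt/wt, and Jun 8.19% ± 0.675 in ko/ko and 8.02% ± 0.674 in wt/wt. Atf3 made up 10.1% to 10.5% in ko/ko libraries and 11.3% to 12.7% in wt/wt libraries. For 1000 units of Fos per kilobase there were 7.47 to 9.07 of Fosl2 in ko/ko libraries and 2.55 to 6.62 in wt/wt libraries. The ratio of Fos to Jun per kilobase was 6.19 ± 0.527 in ko/ko and 6.28 ± 0.748 in wt/wt. These shares restate the levels above and were not tested.

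**Figure D3:**
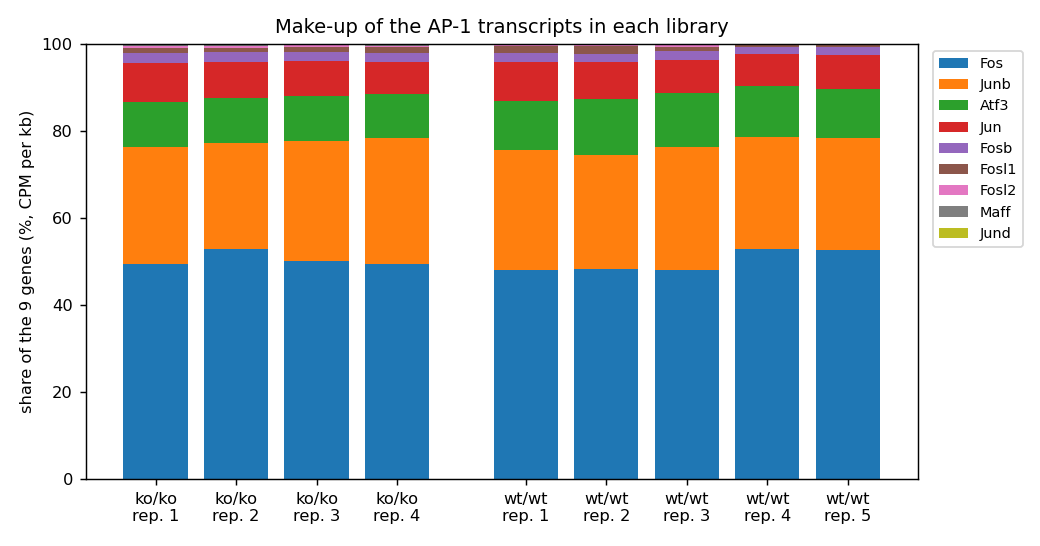
Share of each AP-1 gene in the sum of the 9 genes, in percent of CPM per kilobase, as 1 stacked bar per library (ko/ko left, wt/wt right). Fos takes 48.0% to 53.0% and Junb 24.2% to 28.9% of every bar; the Atf3 band is 10.1% to 10.5% in ko/ko and 11.3% to 12.7% in wt/wt.

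Genes that act with, above or below AP-1 were taken from 5 lists, and 0 members of any list passed edgeR's adjusted threshold, so the values below describe these libraries. Of 17 tested dimer partners and inhibitors, 9 had positive and 8 negative log2 fold changes, with a median of 0.09. At an unadjusted p under 0.05, 4 of the 17 were higher in ko/ko and 1 lower, against 8.86% of all genes higher and 6.42% lower. Bach2, a Maf partner and repressor, averaged 5.62 ± 2.51 CPM in ko/ko and 2.08 ± 1.02 CPM in wt/wt (log2 fold change 1.43, edgeR adjusted p = 0.186), and DESeq2 called it. Its relative Bach1 averaged 12.5 ± 2.04 CPM in ko/ko and 8.11 ± 1.23 CPM in wt/wt (0.62, adjusted p = 0.199), with no overlap. Atf7, a partner of Jun, was at 74.5 ± 4.42 CPM in ko/ko and 59.0 ± 5.08 CPM in wt/wt (0.34, adjusted p = 0.243), also with no overlap. The large Maf protein gene Maf was at 49.0 ± 7.62 CPM in ko/ko and 33.3 ± 8.86 CPM in wt/wt (0.56, adjusted p = 0.236). Weighted voom called Bach2, Atf7 and Maf higher, where it called 6.6% of all genes higher.

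Of the 27 kinases and phosphatases upstream of AP-1, 16 were positive and 11 negative, with a median of 0.05, and 5 of the 27 were higher and 2 lower at an unadjusted p under 0.05, against the same 8.86% and 6.42% of all genes. Map3k5, which encodes the stress kinase ASK1, averaged 17.8 ± 7.05 CPM in ko/ko and 8.99 ± 1.43 CPM in wt/wt, with no overlap (log2 fold change 0.98, adjusted p = 0.152 with edgeR, 0.0210 with DESeq2 and 0.0419 with weighted voom). Dusp2, a nuclear phosphatase of MAP kinases, had 4.07 to 10.3 CPM in ko/ko and 8.37 to 50.9 CPM in wt/wt (-1.92, adjusted p = 0.161 with edgeR and 0.00779 with DESeq2, but -1.05 and 0.117 with weighted voom). Like Fosl1, Dusp2 was highest in wt/wt replicates 1 and 2. Mapk10, the gene of JNK3, was at 1.30 ± 0.763 CPM in ko/ko and 0.499 ± 0.285 CPM in wt/wt (1.36, adjusted p = 0.282). Map3k11, a kinase above JNK, was at 26.2 ± 3.80 CPM in ko/ko and 33.1 ± 3.12 CPM in wt/wt (-0.34, adjusted p = 0.308). Weighted voom called Mapk8, Mapk14, Map3k5 and Rps6ka3 higher, 4 of the 27, and 0 lower, where it called 6.6% of all genes higher and 3.17% lower.

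Among the 12 transcriptional inputs of Fos and Jun, 8 were positive and 4 negative, the median was 0.24, and 0 had an unadjusted p under 0.05, against 15.3% of all genes. Srf, serum response factor, averaged 24.4 ± 3.84 CPM in ko/ko and 17.6 ± 5.26 CPM in wt/wt (0.48, adjusted p = 0.339), and its partner Elk4 84.9 ± 16.2 CPM in ko/ko and 59.7 ± 21.4 CPM in wt/wt (0.51, adjusted p = 0.357). Weighted voom called both higher, and DESeq2 neither. The Srf coactivators Mrtfb and Mrtfa had log2 fold changes of 0.34 and 0.35 (adjusted p = 0.436 and 0.445 with edgeR).

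Of 24 tested AP-1 target genes, 13 were positive and 11 negative, with a median of 0.04. At an unadjusted p under 0.05, 4 of the 24 were higher in ko/ko and 0 lower, against 8.86% of all genes higher and 6.42% lower. These 4 were Sprr1b, Vegfa, Sprr1a and Mmp14. Sprr1b, a cornified envelope precursor, had 13.7, 4.52, 2.81 and 6.56 CPM in ko/ko, against 2.59, 2.30, 2.63, 2.23 and 1.65 CPM in wt/wt (log2 fold change 1.59, adjusted p = 0.152 with edgeR and 0.0152 with DESeq2, and 1.06 and 0.0691 with weighted voom). The genotypes did not overlap, but ko/ko replicate 1 was far above the rest, and the log2 fold change was 0.73 without the 3 libraries rich in Gm10800. Vegfa, an angiogenic growth factor, averaged 15.0 ± 3.80 CPM in ko/ko and 6.59 ± 2.91 CPM in wt/wt, with no overlap (1.18, adjusted p = 0.184 with edgeR, 0.0388 with DESeq2 and 0.0201 with weighted voom). Sprr1a, another envelope precursor, was at 52.1 ± 17.0 CPM in ko/ko and 27.7 ± 15.4 CPM in wt/wt (0.91, adjusted p = 0.272), and the membrane metalloproteinase gene Mmp14 at 87.6 ± 14.2 CPM in ko/ko and 62.5 ± 15.3 CPM in wt/wt (0.49, adjusted p = 0.275).

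The other immediate early genes had values on both sides. Of 25 tested, 8 were positive and 17 negative, with a median of -0.12, and at an unadjusted p under 0.05 there were 5 higher and 4 lower, against 8.86% and 6.42% of all genes. Nr4a3, an orphan nuclear receptor, had 59.4, 92.2, 86.5 and 93.8 CPM in ko/ko, against 30.6, 28.9, 56.9, 33.1 and 24.3 CPM in wt/wt. The genotypes did not overlap, and the log2 fold change was 1.26 (SE 0.24, adjusted p = 0.127 with edgeR, 0.000603 with DESeq2 and 0.0137 with weighted voom). The Krüppel-like factor genes lay on both sides. Klf2 (log2 fold change 0.33, edgeR adjusted p = 0.252) and Klf4 (0.55, edgeR adjusted p = 0.211) were higher in ko/ko with no overlap. Klf6 and Klf10 were lower, again with no overlap, as was Btg2 outside this family (log2 fold change -0.29, edgeR adjusted p = 0.419). In all, 3 of the 25 genes were higher and 3 lower with no overlap, against 3.51% and 2.74% of all genes. Klf6 averaged 692 ± 124 CPM in ko/ko and 996 ± 139 CPM in wt/wt (-0.52, adjusted p = 0.208), and Klf10 1004 ± 177 CPM in ko/ko and 1492 ± 255 CPM in wt/wt (-0.57, adjusted p = 0.208). DESeq2 called Klf6 lower, at an adjusted p of 0.0494, and weighted voom did not, at 0.109 with a log2 fold change of -0.35. The heat shock gene Hspa1b was at 50.2 ± 17.7 CPM in ko/ko and 27.1 ± 8.36 CPM in wt/wt (0.89, adjusted p = 0.193), but its reads are hard to separate from those of its near-identical and more abundant neighbour Hspa1a. Hspa1a itself averaged 297 ± 49.3 CPM in ko/ko and 371 ± 144 CPM in wt/wt (-0.32, edgeR adjusted p = 0.580). The sum of both genes was 347 ± 64.3 CPM in ko/ko and 398 ± 152 CPM in wt/wt, with overlapping libraries, so no direction is given for Hspa1b. Weighted voom called 3 of the 25 genes higher (Nr4a3, Klf4 and Hspa1b) and 1 lower (Socs3). Over all genes it called 6.6% higher and 3.17% lower. Egr1, an immediate early zinc finger factor, was chosen after its values were seen as a contrast to Fos. It averaged 5950 ± 416 CPM in ko/ko and 5982 ± 526 CPM in wt/wt, with a log2 fold change of -0.01 (SE 0.15, adjusted p = 0.986 with edgeR).

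**Figure D4:**
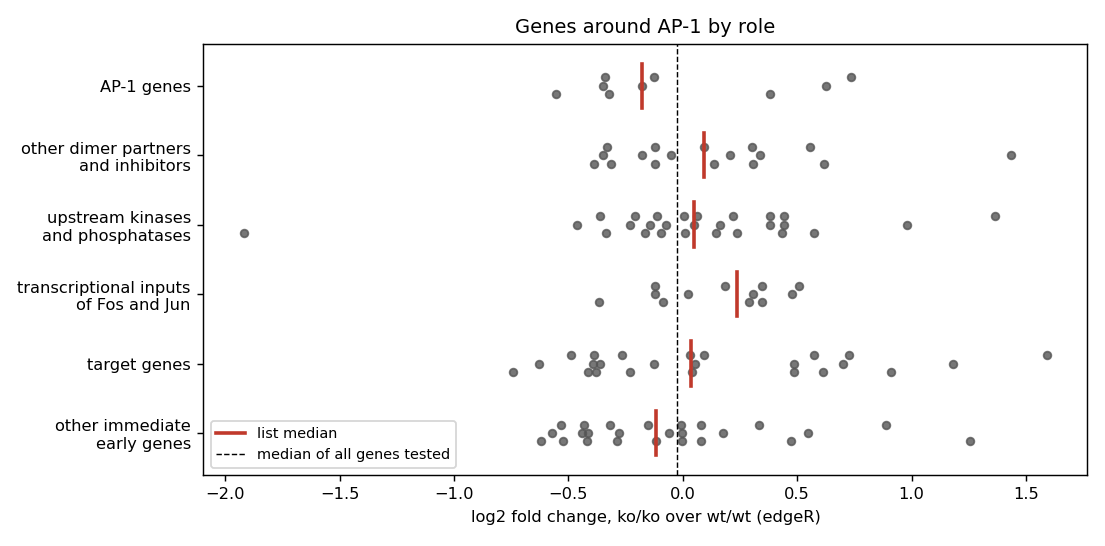
Log2 fold changes, ko/ko over wt/wt, of the tested genes in each list (1 point per gene, 1 row per list, vertical scatter for legibility). Red lines mark list medians, from -0.18 for the AP-1 genes to 0.24 for the transcriptional inputs, and the dashed line the median of all genes tested (-0.03).

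The 9 genes did not share 1 profile over the libraries. Centred on its own mean log2 CPM, each member differed from the mean profile of the 9 by a root mean square of 0.143 (Fosb) to 0.513 (Fosl1), and the mean profile itself was nearly flat, from -0.23 in wt/wt replicate 4 to 0.16 in wt/wt replicate 1. The 5 other genes nearest to that mean profile over the 9 libraries were H2-T23 (0.0709), Atg101 (0.0743), H2-Q2 (0.0758), Sox9 (0.0761) and Crnde (0.0786). Each lay nearer to the nearly flat mean than any of the 9 members did, so this nearness is not likeness to an AP-1 gene. H2-T23 and H2-Q2 belong to a family of near-identical class I genes, between which reads may be split.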

How the data were processed

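The authors deposited whole-number read counts for each gene and library, not normalized, together with the exon length of each gene. The submitters' processing notes name GSNAP, featureCounts (version 1.6.2) and mm10, and the table's name gives Ensembl release 87. Per the labels' protocols, polyadenylated RNA was amplified over 13 cycles by a SMARTseq2 protocol, tagmented and sequenced on a NextSeq 500. No molecular identifiers are named, and the sources used here do not say how strand, multi-mapped reads and duplicates were treated. After 92 spike-in sequences were left out, 49671 genes remained.

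Gene names came from the reference table given with the genome, and genotypes from the labels. Replicates were numbered by accession and are not paired. edgeR 4.0.16 (R 4.3.3) was run after filterByExpr and TMM scaling, with a robust quasi-likelihood fit, a two-sided test and Benjamini-Hochberg adjustment over 18435 genes, threshold 0.05; 31236 genes were filtered out. CPM use TMM-adjusted library sizes except where a share or level of the library total is named. SD is over libraries. The script was tested on simulated counts. Alternatives were DESeq2 1.42.0, limma 3.58.1 voom with quality weights, other scalings and filters, robust=FALSE, removal of a loess trend (span 0.3) on exon length, and fits without libraries. The named list genes are the called members of each list or, with none called, the 4 with the smallest p. Hspa1a, Egr1, Klf2, Klf4, Btg2 and genes called by weighted voom were named in addition. The 9 genes, the lists and the tests were chosen with earlier results of these data known. Of the immediate early list, Cyr61 is an older name of Ccn1, which is counted once. Promoter windows came from RefSeq.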

Additional observations from a re-analysis of the deposited data

Results flagged for a closer look

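A test for 1 library far from the rest of its group was made on 68 groups of values, and 5 such values were found; chance gives about 1 in 20, or 3.4. In ko/ko replicate 1, Maf was at 60.4 CPM where the remaining ko/ko libraries had 44.2 to 46.4 CPM, and Klf10 at 741 CPM where they had 1064 to 1121 CPM. In wt/wt replicate 3, Nr4a3 was at 56.9 CPM where the remaining wt/wt libraries had 24.3 to 33.1 CPM. In wt/wt replicate 2, the summed basal keratinocyte markers were at 3148 CPM where the remaining wt/wt libraries had 1500 to 1890 CPM, and the summed hair follicle sheath markers at 138 CPM where they had 6.78 to 26.2 CPM. None of the 9 AP-1 genes had such a value in either genotype (0 genes).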

How the results depend on the processing

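The number of AP-1 genes past the threshold was 0 in every edgeR fit, 2 with DESeq2 (Fosl2, Atf3) and 1 with limma voom with quality weights (Atf3). Signs held for 8 of the 9 genes in all 18 other settings; Fosl1 reversed to 0.50 with voom, 0.03 without wt/wt replicate 1 and 0.17 without wt/wt replicate 2, in a range of -0.31 to 0.17 over the fits without 1 library. The cause was not tested. Over the same settings the adjusted p ranged from 0.000232 to 0.330 for Atf3 and from 0.0349 to 0.369 for Fosl2. Of the list genes, 0 passed with edgeR, 1 with no filter on low counts, 7 with DESeq2 and 14 with voom. The 5 lists held 17, 27, 12, 24 and 25 tested genes, with Creb1 and Atf2 in more than 1 list. DESeq2 called 3.46% of all genes and voom 9.77%. Over all genes, 1 passed with edgeR, 4 with library totals, 28 with no filter, 624 with DESeq2, 1802 with voom, 0 with the length trend removed, 7 without the 3 libraries rich in Gm10800 reads, and 0 to 12 when 1 library was left out (12 without ko/ko replicate 4). With no division by exon length, 5 of 9 genes kept their place in the order of levels. No paired analysis was possible because the labels give the libraries no shared replicate numbers. Counting error is largest, relative to the value, for Jund among the AP-1 genes and for Mapk10, Bach2 and Sprr1b among the named list genes.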

Other observations

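The 5 most abundant AP-1 genes lay among 111 genes with a mean of at least 1000 CPM, a level chosen after the values were seen. Of these 111 genes, the AP-1 genes included, the genotypes did not overlap for 0 genes higher in ko/ko and for 8 lower (7.21%), against 3.51% higher and 2.74% lower over all genes tested. Fos, Junb and Atf3 are 3 of these 8, though Fos and Junb overlapped when scaled by library totals. The values of all 3 were known when the level was chosen. Without the AP-1 genes, 5 of 106 genes were lower with no overlap (4.72%) and 0 higher. At an unadjusted p under 0.05, 1 of the 106 genes was higher and 10 were lower, against 8.86% and 6.42% of all genes. The median log2 fold change was -0.17 over the 111 genes and -0.15 over the 106, against -0.03 over all genes tested.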
